A study of Mus musculus with 8 samples.

Results

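Malat1 and Neat1 are abundant long noncoding RNAs that stay in the cell nucleus. They were taken as the rows with those gene symbols in both deposited count tables, 2 of 34399 symbols. The pair was selected on measured values of these same libraries, so their levels and differences are given as a description, with no test. Ventricular fibroblasts were sorted for GFP 4 weeks after transverse aortic constriction (TAC), a surgical narrowing of the aorta that loads the heart with pressure. Smad2/3 DKO cells (2 libraries) came from mice with MerCreMer in the Postn locus, the Rosa26 eGFP reporter, and Smad2 flox/flox and Smad3 flox/flox alleles, and their Postn-Cre controls (2 libraries) from mice with the same Cre and reporter. Tgfbr1/2 DKO cells (2 libraries) carried MerCreMer in the Tcf21 locus, the same reporter, and floxed alleles of both TGF-β receptor genes, and their Tcf21-Cre controls (2 libraries) the same Cre and reporter. Mice of all 4 groups received tamoxifen at 100 mg/kg on 2 days and then tamoxifen chow at 40 mg/kg, which activates MerCreMer, and had TAC at 8 to 10 weeks of age.

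Postn marks activated fibroblasts and Tcf21 marks resident ones, so GFP labelled the cells in which each driver had been active. The Postn-driven libraries belong to one sequencing run and the Tcf21-driven ones to another. Targeted genes, Cre driver and run therefore change together between the comparisons and cannot be told apart. Postn itself had 186 to 295 CPM in the Postn-driven libraries and 1489 to 3076 CPM in the Tcf21-driven ones. Tcf21 had 25.6 to 37.7 CPM and 111 to 163 CPM. The labels do not say whether the libraries of a group came from separate animals, so their spread may be technical. Library totals ran from 21477646 to 32594474 counts, at which 3 counts, the limit that a count of 0 allows, correspond to 0.092 to 0.14 CPM (the count per 1000000 counts of the library, counting error only). The targeted genes stayed countable. Smad2 had 84.5 and 78.2 CPM in Smad2/3 DKO libraries, against 95.4 and 82.3 CPM in Postn-Cre control libraries, and Smad3 had 70.5 and 109 CPM in Smad2/3 DKO, against 114 and 92.7 CPM in Postn-Cre control (adjusted p = 0.747 and 0.702). Tgfbr1 had 181 and 193 CPM in Tgfbr1/2 DKO libraries, against 229 and 238 CPM in Tcf21-Cre control libraries, and Tgfbr2 had 471 and 406 CPM in Tgfbr1/2 DKO libraries, against 370 and 406 CPM in Tcf21-Cre control libraries (adjusted p = 0.533 and 0.535). Counts over a whole gene include exons that a deletion leaves in place, so they do not check the genotype.

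Malat1 gathers in nuclear speckles, bodies rich in splicing factors. Neat1 is the scaffold of paraspeckles, bodies that form around its long isoform and hold RNA-binding proteins. Neither long transcript ends with an ordinary poly(A) tail: RNase P cuts it ahead of a tRNA-like small RNA, and U-rich motifs fold with an A-rich tract into a triple helix that protects the new end. Both RNAs are expressed in many mammalian cell types, fibroblasts included.

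The genes are neighbours on mouse chromosome 19. Malat1 (ENSMUSG00000092341) lies at chr19:5795690-5802672 and Neat1 (ENSMUSG00000092274) at chr19:5824708-5845478, both on the minus strand of GRCm38 and 22035 bases apart. GENCODE vM21 lists both as lincRNA genes with 4 transcripts each. Malat1-201 is a single exon of 6983 bases. Neat1-201, the long isoform, is a single exon of 20771 bases that covers the whole gene. Neat1-202, the short polyadenylated isoform, has 2 exons and 3004 bases. A count per gene does not separate these isoforms.

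The 3′ ends are printed because they set how each RNA is stabilised and show what the pair shares. Sequences are from the GENCODE vM21 transcripts, written 5′ to 3′ on the minus strand, at chr19:5795921-5796075 for Malat1 and chr19:5824708-5824807 for Neat1. In the long transcripts, capitals mark the U-rich motifs TTTCTTTT and TTTTGCTTTT and the A-rich tract AAAAAGCAAA.
Malat1 3' end: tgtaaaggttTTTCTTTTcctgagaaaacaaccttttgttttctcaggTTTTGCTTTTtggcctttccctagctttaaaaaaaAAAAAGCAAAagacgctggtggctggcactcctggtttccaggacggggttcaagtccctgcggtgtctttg
Neat1 3' end: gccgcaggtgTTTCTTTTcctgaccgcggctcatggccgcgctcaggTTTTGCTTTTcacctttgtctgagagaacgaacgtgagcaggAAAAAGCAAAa
In Malat1-201 the A-rich tract was followed by 293 more bases of the annotated transcript, which begin with the tRNA-like small RNA. In Neat1-201 the annotated end lay 1 base after the tract. The next 56 bases, chr19:5824652-5824707, carry a small RNA gene of their own, Gm27702, which was not analysed here.
Gm27702: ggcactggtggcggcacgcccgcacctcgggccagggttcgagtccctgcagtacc
The short isoform ends elsewhere, at chr19:5842307-5842366, where capitals mark AATAAA, the usual signal for polyadenylation.
Neat1 short isoform 3' end: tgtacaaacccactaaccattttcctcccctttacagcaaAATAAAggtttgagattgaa

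The motif letters were read from the Malat1 and Neat1 sequences themselves. On the transcript strand, with at most 60 bases between neighbouring motifs, the series of 3 motifs was found in 2 of 141767 mouse transcripts, Malat1-201 and Neat1-201. The last 2 motifs alone were found in 7 transcripts of 5 genes. The ends share an unbroken run of 16 bases, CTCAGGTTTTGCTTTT, and another of 13 bases, TTTCTTTTCCTGA.

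The promoter of Malat1 is printed with its matches to motifs of signal-regulated factors, Smad3 among them, which TGF-β receptors activate. It is the RefSeq sequence on GRCm38.p6, minus strand, chr19:5802623-5802922, from 250 bases before to 50 bases after the start. The Smad3 box CAGAC and the palindrome GTCTAGAC, searched on both strands, had 0 matches in it, and 49.5% and 0.2% of 32544 mouse promoters of this length held them. The short cAMP response element TGACG had 3 matches (20.9% of promoters hold it), and the hypoxia response core ACGTG had 1 (19.7%), which overlaps a TGACG. The full element TGACGTCA had 0 (1.8%). Capitals mark these matches, with CGTCA being TGACG on the other strand. Such matches describe letters in this window and say nothing about binding.
Malat1 promoter: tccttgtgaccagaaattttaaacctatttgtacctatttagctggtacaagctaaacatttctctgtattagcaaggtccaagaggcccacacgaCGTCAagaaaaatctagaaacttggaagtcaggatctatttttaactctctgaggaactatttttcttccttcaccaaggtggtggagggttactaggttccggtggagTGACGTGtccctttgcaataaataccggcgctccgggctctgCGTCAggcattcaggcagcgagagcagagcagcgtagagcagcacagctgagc

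Malat1 was higher in Smad2/3 DKO fibroblasts than in their controls and lower in Tgfbr1/2 DKO fibroblasts than in theirs. It had 48941 CPM (library HK15) and 46865 CPM (HK16) in Smad2/3 DKO libraries, against 27853 CPM (HK3) and 36029 CPM (HK4) in Postn-Cre control libraries. It had 8879 CPM (HK2) and 9317 CPM (HK4) in Tgfbr1/2 DKO libraries, against 27421 CPM (HK6) and 20923 CPM (HK7) in Tcf21-Cre control libraries. The groups of neither comparison overlap, and the directions are opposite. With 2 libraries against 2, groups can separate in this way without a difference between genotypes. The share of all genes that do so was not counted. Each DKO pair sat close together, while each control pair was more spread.

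The fitted log2 fold change of Malat1 was 0.53 ± 0.14 (SE, 2 libraries against 2) in Smad2/3 DKO against Postn-Cre control, or 1.44-fold. In Tgfbr1/2 DKO against Tcf21-Cre control it was -1.32 ± 0.26 (SE, 2 against 2), or 2.5-fold lower. The authors' deposited table gives log2 fold changes of 0.6 and -1.4 for these comparisons. Among the genes fitted, 61.8% of 15760 had a smaller change in size than Malat1 in the Smad2/3 comparison, and 93.0% of 16658 in the Tgfbr1/2 comparison. Of those genes, 1.29% (204) and 3.96% (659) passed an adjusted p of 0.05 (edgeR). With a library left out, Malat1 lay between 0.37 and 0.71 in the Smad2/3 comparison and between -1.45 and -1.16 in the Tgfbr1/2 comparison. Because the groups do not overlap, leaving out a library could not be expected to turn the sign. The Smad2/3 effect minus the Tgfbr1/2 effect was 1.84 ± 0.31 (SE) on the log2 scale.

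**Figure D1:**
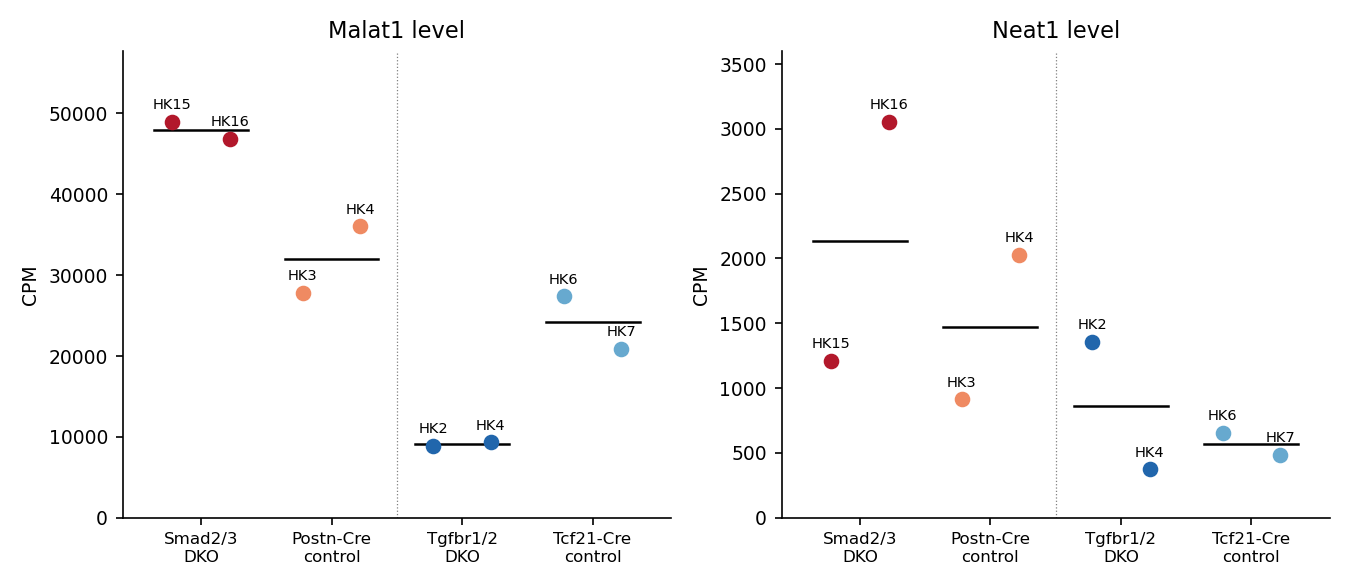
Level of Malat1 (left) and Neat1 (right) in CPM in each of 8 libraries, labelled with their HK numbers, by group. Points are libraries, lines are group means and the dotted line separates the sequencing runs. Malat1 sits at 46865 to 48941 CPM in Smad2/3 DKO and 8879 to 9317 CPM in Tgfbr1/2 DKO, apart from each control pair, while Neat1 overlaps in both comparisons.

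Malat1 alone held 4.89% and 4.69% of all counts in Smad2/3 DKO libraries, against 2.79% and 3.6% in Postn-Cre control libraries. Its share was 0.888% and 0.932% in Tgfbr1/2 DKO libraries, against 2.74% and 2.09% in Tcf21-Cre control libraries. By CPM it ranked first of all genes in each Smad2/3 DKO and Postn-Cre control library. It ranked 4 in both Tgfbr1/2 DKO libraries, against 2 in both Tcf21-Cre control libraries. The gene above Malat1 in the Tcf21-Cre control libraries was Lars2, a mitochondrial tRNA synthetase gene, at 39073 and 45108 CPM. Lars2 had 9014 to 18620 CPM in the Postn-driven libraries, so these ranks also depend on its level. The Malat1 share dilutes every other gene, by 0.0129 to 0.0724 on the log2 scale.

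Neat1 varied widely between libraries of one group. It had 1213 CPM (HK15) and 3053 CPM (HK16) in Smad2/3 DKO libraries, against 914 CPM (HK3) and 2027 CPM (HK4) in Postn-Cre control libraries. It had 1356 CPM (HK2) and 374 CPM (HK4) in Tgfbr1/2 DKO libraries, against 657 CPM (HK6) and 487 CPM (HK7) in Tcf21-Cre control libraries. The groups overlap in both comparisons: one Tgfbr1/2 DKO library lies above both controls and the other below both.

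The fitted log2 fold change of Neat1 was 0.49 ± 0.57 (SE) in Smad2/3 DKO against Postn-Cre control and 0.64 ± 0.58 (SE) in Tgfbr1/2 DKO against Tcf21-Cre control. Single libraries set the sign. Without Smad2/3 DKO HK16 the Smad2/3 value was -0.34, without Smad2/3 DKO HK15 it was 1.01, without Postn-Cre control HK3 it was 0.04, and without Postn-Cre control HK4 it was 1.15. Without Tgfbr1/2 DKO HK2 the Tgfbr1/2 value was -0.45, and without Tgfbr1/2 DKO HK4 it was 1.27. The authors' deposited table gives log2 fold changes of 0.5 and 0.33. The Smad2/3 effect minus the Tgfbr1/2 effect was -0.17 ± 0.76 (SE), and it ran from -0.99 without Smad2/3 DKO HK16 to 0.90 without Tgfbr1/2 DKO HK2.

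**Figure D2:**
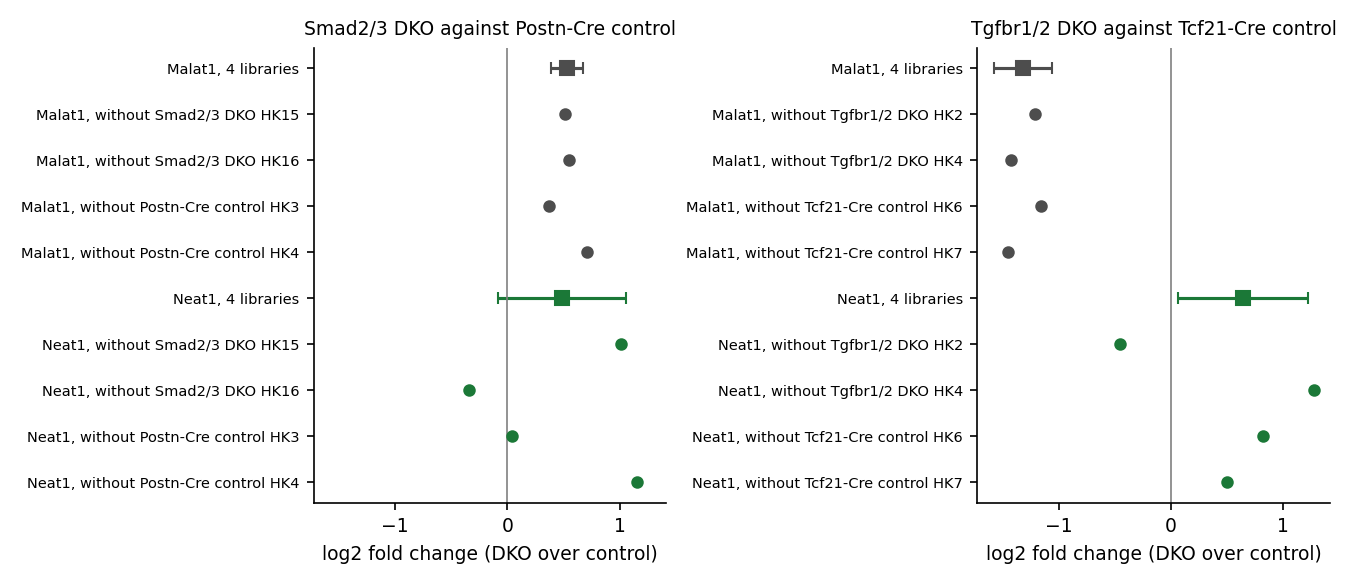
Fitted log2 fold change (DKO over control) of Malat1 and Neat1 in each comparison, from all 4 libraries (squares, bars are SE) and with 1 library left out (circles). The Malat1 values stay on one side of 0, which follows from groups that do not overlap. The Neat1 values cross 0 when Smad2/3 DKO HK16 or Tgfbr1/2 DKO HK2 is left out.

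The spread of Neat1 within a group stood out against that of other genes. Its libraries differed by 1.33 on the log2 scale in Smad2/3 DKO, 1.15 in Postn-Cre control, 1.86 in Tgfbr1/2 DKO and 0.431 in Tcf21-Cre control. Among 8246 genes with a mean of at least 10 CPM, 99.3%, 98.1%, 99.9% and 77.2% differed by less in those groups, where the median differences were 0.234, 0.255, 0.197 and 0.23. Malat1 libraries differed by 0.0625, 0.371, 0.0695 and 0.39 in the same groups, a spread that 14.6%, 66.0%, 18.5% and 73.0% of these genes undercut.

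Per kilobase of exon, Malat1 was the more abundant in each library. Its level was 7009 and 6711 CPM per kb in Smad2/3 DKO libraries, against 3989 and 5159 in Postn-Cre control libraries. It was 1272 and 1334 CPM per kb in Tgfbr1/2 DKO libraries, against 3927 and 2996 in Tcf21-Cre control libraries. Neat1 had 58.4 and 147 CPM per kb in Smad2/3 DKO, against 44.0 and 97.6 in Postn-Cre control, and 65.3 and 18.0 in Tgfbr1/2 DKO, against 31.6 and 23.4 in Tcf21-Cre control. The ratio of Malat1 to Neat1 per length ran from 19.5 in Tgfbr1/2 DKO HK2 to 128 in Tcf21-Cre control HK7. The Neat1 length used is that of the long isoform, so its level per kb is understated where counts come from the short one.

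The levels of the pair were compared across libraries. After each run's mean was subtracted from log2(CPM + 1), Pearson's r between Malat1 and Neat1 over the 8 libraries was 0.008, and without that step it was 0.555, a value that includes the difference between runs. Among 8150 genes with a mean of at least 10 CPM, predicted genes and pseudogenes aside, those most like Malat1 were Iqcb1 (r = 0.998), Rab6b (0.988), Ctcfl (0.987), Xrcc2 (0.98) and Gjc3 (0.978). Rab6b, a Golgi trafficking GTPase, had 46.8 and 42.3 CPM in Smad2/3 DKO, against 14.5 and 17.4 CPM in Postn-Cre control, and 2.36 and 3.07 CPM in Tgfbr1/2 DKO, against 91.8 and 50.7 CPM in Tcf21-Cre control. Most like Neat1 were BC024978 (r = 0.944), Eif5a2 (0.934), Fam188a (0.933), Nt5dc1 (0.921) and Hectd2 (0.92). With 8 libraries and this many genes, high values of r occur in any search, and without the subtraction 1 of the 5 genes was shared for each RNA.

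Genes beside Malat1 and Neat1 were read in the same way. Of 35 genes annotated within 200 kb of either RNA, 18 had a mean of at least 1 CPM, and all 18 were fitted. Over all genes fitted, 2137 of 15760 (Smad2/3), 3332 of 16658 (Tgfbr1/2) and 3092 of 17770 (difference) had an unadjusted p under 0.05 (edgeR). DESeq2 called 771 of 15971, 1104 of 17039 and 1138 of 15954. Such counts for the neighbours and for the lists below are to be read beside these. In Smad2/3 DKO against Postn-Cre control, 0 of 18 passed (edgeR; 2 had an unadjusted p under 0.05 and DESeq2 called 0), with a median log2 fold change of -0.08, beside 0.01 over all genes fitted. In Tgfbr1/2 DKO against Tcf21-Cre control, 1 of 18 rose, with a median of 0.33 beside -0.01. This was Capn1, the catalytic subunit of calpain-1, at 39.2 and 37.0 CPM in Tgfbr1/2 DKO against 20.9 and 23.8 CPM in Tcf21-Cre control (log2 fold change 0.85 ± 0.21, adjusted p = 0.0498). The call was lost without any one of the 4 libraries, with adjusted p from 0.0662 without Tcf21-Cre control HK7 to 0.214 without Tgfbr1/2 DKO HK4, and under 4 processing alternatives (0.0522 to 0.464).

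Frmd8, a FERM domain gene beyond the Neat1 start, had log2 fold changes of -0.40 ± 0.51 in the Smad2/3 comparison and 0.46 ± 0.23 in the Tgfbr1/2 comparison, where Malat1 had -1.32. Ltbp3, which encodes a latent TGF-β binding protein, had 124 and 88.7 CPM in Smad2/3 DKO against 143 and 142 CPM in Postn-Cre control, and 270 and 290 CPM in Tgfbr1/2 DKO against 302 and 412 CPM in Tcf21-Cre control. Its adjusted p was 0.298 and 0.552. Rela, the NF-κB subunit p65, had -0.41 ± 0.20 and 0.31 ± 0.23, with adjusted p of 0.393 and 0.491. Slc25a45, a mitochondrial carrier family gene, had the highest value of the 18 in the Smad2/3 comparison, 2.11 ± 0.84 at a mean of 5.17 CPM, and its adjusted p was 0.288. The other neighbours described (Rnaseh2c, Kat5, Sipa1, Pcnxl3, Map3k11, Ehbp1l1, Fam89b, Sssca1, Tigd3, Dpf2, Cdc42ep2 and Pola2) lay between -1.02 and 0.73 in the Smad2/3 comparison and between -1.02 and 0.48 in the Tgfbr1/2 comparison.

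**Figure D3:**
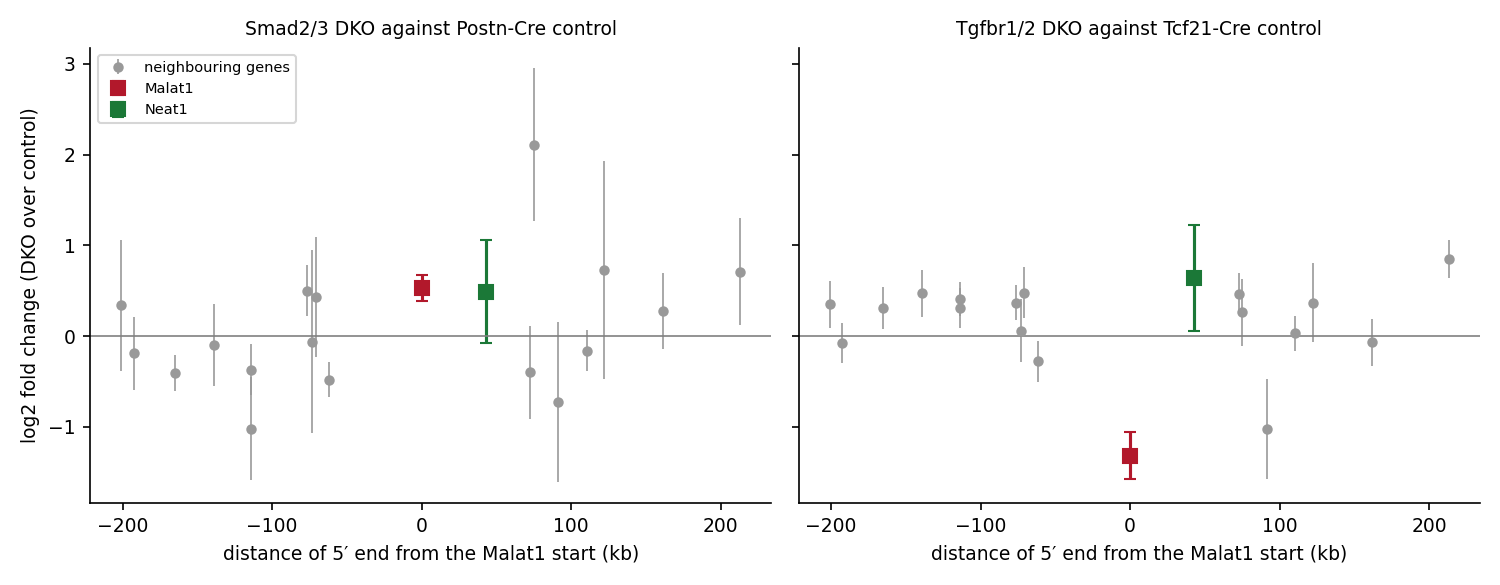
Log2 fold change (DKO over control, bars are SE) of Malat1, Neat1 and 17 of the 18 neighbouring genes with a mean of at least 1 CPM, against the distance in kb of each gene's 5′ end from the Malat1 start. In the Tgfbr1/2 comparison Malat1 stands at -1.32 and the neighbours plotted between -1.02 and 0.85.

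Other nuclear long noncoding RNAs were few in the tables. Of 20 names listed, 7 matched, and 4 had enough counts to be fitted. In Smad2/3 DKO against Postn-Cre control 1 of 4 rose, and in Tgfbr1/2 DKO against Tcf21-Cre control 1 of 4 fell. The median log2 fold changes were 0.45 and -0.53, beside 0.01 and -0.01 over all genes fitted. Meg3, an imprinted RNA, had 106 and 78.6 CPM in Tgfbr1/2 DKO against 271 and 198 CPM in Tcf21-Cre control, and fell by 1.27 on the log2 scale (adjusted p = 0.0101, and 0.0676 without Tgfbr1/2 DKO HK4). In the Smad2/3 comparison Meg3 had a log2 fold change of 0.35 ± 0.22 (adjusted p = 0.54). The difference between its effects was 1.61 (adjusted p = 0.0357, up to 0.145 with a library left out). For that difference, 1.83% of 17770 genes (326) passed.

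Xist, which coats the inactive X chromosome, had 277 and 75.3 CPM in Smad2/3 DKO against 3.65 and 2.18 CPM in Postn-Cre control, a log2 fold change of 5.84 ± 0.64 (adjusted p = 0.00463). The call was lost without Postn-Cre control HK3 (adjusted p = 0.375) and without HK4 (0.546). Y-linked genes were counted in the same Smad2/3 DKO libraries: Ddx3y had 132 and 177 CPM in Smad2/3 DKO, against 164 and 222 CPM in Postn-Cre control. The other Y-linked genes read, Eif2s3y, Kdm5d and Uty, had log2 fold changes of -0.05 ± 0.24, 0.23 ± 0.29 and -0.44 ± 0.22 in that comparison. Why Xist and Y-linked counts occur in the same libraries was not tested, nor was their part in the Malat1 difference of that comparison. Xist had 1.07 and 1.17 CPM in Tgfbr1/2 DKO, against 1.75 and 1.27 CPM in Tcf21-Cre control. Airn had log2 fold changes of 0.56 ± 0.24 and -0.74 ± 0.21 in the Smad2/3 and Tgfbr1/2 comparisons (adjusted p = 0.32 and 0.0858), and Tug1 had -0.23 ± 0.16 and -0.14 ± 0.18 (0.596 and 0.718).

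Of 21 cytoplasmic and snoRNA host RNAs, 10 matched. In the Smad2/3 comparison 1 of 8 fitted rose, with a median log2 fold change of 0.04. This was Gas5, a host of snoRNAs, at 686 and 843 CPM in Smad2/3 DKO against 424 and 421 CPM in Postn-Cre control (0.80 ± 0.15, adjusted p = 0.0341). Its call was lost in a fit of all 8 libraries (0.0569), without Smad2/3 DKO HK16 (0.188) and without Postn-Cre control HK3 (0.0518). In the Tgfbr1/2 comparison 0 of 9 passed (edgeR; 4 had an unadjusted p under 0.05 and DESeq2 called 0), with a median of -0.47. The 3 most abundant were Gas5 (-0.12 ± 0.20), 1700020I14Rik (-0.47 ± 0.18) and Mir22hg (-0.85 ± 0.29). None of 12 names of structured small RNAs listed matched, and these were not analysed here.

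Over all genes annotated as lincRNA other than Malat1 and Neat1, 3 of 370 passed in the Smad2/3 comparison (0.811%) and 10 of 406 in the Tgfbr1/2 comparison (2.46%), both under the shares over all genes. Their median log2 fold changes were 0.15 and -0.37, beside 0.01 and -0.01 over all genes. In the Tgfbr1/2 comparison 3 lincRNA genes rose and 7 fell. In the Smad2/3 comparison 2 rose and 1 fell.

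The listed genes for proteins of the bodies that hold these RNAs did not pass in either comparison. Only their RNA was counted, and protein was not measured. Among 19 paraspeckle proteins, 0 passed in the Smad2/3 comparison (edgeR; 2 had an unadjusted p under 0.05 and DESeq2 called 1) and 0 in the Tgfbr1/2 comparison (5 and 0), with median log2 fold changes of 0.05 and 0.02. Sfpq, a core paraspeckle protein, had 551 and 490 CPM in Smad2/3 DKO against 415 and 425 CPM in Postn-Cre control, and 148 and 222 CPM in Tgfbr1/2 DKO against 222 and 141 CPM in Tcf21-Cre control. Hnrnpk, which acts on isoform choice of Neat1, had log2 fold changes of -0.01 ± 0.15 and 0.15 ± 0.21, and Ewsr1, an RNA-binding protein, had 0.04 ± 0.16 and -0.20 ± 0.22. Hnrnph3, an hnRNP found in paraspeckles, had 97.9 and 82.9 CPM in Smad2/3 DKO against 51.5 and 47.2 CPM in Postn-Cre control, and 48.4 and 51.8 CPM in Tgfbr1/2 DKO against 86.2 and 70.2 CPM in Tcf21-Cre control. It passed in neither comparison (adjusted p = 0.0871 and 0.133), while the difference between its effects was 1.36 (adjusted p = 0.0314, and up to 0.111 with a library left out, above 0.05 for each of the 8).

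Among 25 nuclear speckle and SR proteins, 0 passed in the Smad2/3 comparison (edgeR; 6 had an unadjusted p under 0.05 and DESeq2 called 1) and 0 in the Tgfbr1/2 comparison (6 and 2). Over all genes fitted, 2137 of 15760 and 3332 of 16658 had an unadjusted p under 0.05 (edgeR). The median log2 fold changes of the list were 0.25 and -0.18. Srrm2, a scaffold of speckles, had log2 fold changes of 0.10 ± 0.13 and -0.18 ± 0.21, and Son, the other scaffold, had 0.02 ± 0.15 and -0.39 ± 0.22. Sf3b1, a spliceosome subunit, had -0.16 ± 0.14 and -0.23 ± 0.22. For the difference between effects, 22 of 25 lay above 0 with a median of 0.28, and 0 passed (edgeR; 6 and 2).

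The genes that make or guard the 3′ ends were measured at low levels. Among 13 genes of RNase P, RNase Z and triple helix binding, 0 passed in the Smad2/3 comparison (edgeR; 0 had an unadjusted p under 0.05 and DESeq2 called 0) and 0 in the Tgfbr1/2 comparison (1 and 0), with medians of 0.23 and 0.26. Mettl16, which binds the Malat1 triple helix, had 54.6 and 49.4 CPM in Smad2/3 DKO against 37.3 and 48.1 CPM in Postn-Cre control, and 35.2 and 40.1 CPM in Tgfbr1/2 DKO against 43.5 and 32.0 CPM in Tcf21-Cre control. Trnt1, which adds CCA to tRNAs, had log2 fold changes of -0.13 ± 0.23 and 0.19 ± 0.21, and Rpp14, an RNase P subunit, had -0.67 ± 0.39 and 0.60 ± 0.25. Among 16 genes of the nuclear exosome and its adaptors, 0 passed in the Smad2/3 comparison (edgeR; 0 unadjusted, DESeq2 0) and 0 in the Tgfbr1/2 comparison (5 and 0), with medians of 0.08 and 0.24. The most abundant of them were Zfc3h1 (0.10 ± 0.17 and -0.43 ± 0.19), Skiv2l2 (-0.01 ± 0.17 and -0.03 ± 0.19) and Zcchc7 (-0.07 ± 0.20 and -0.44 ± 0.19).

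**Figure D4:**
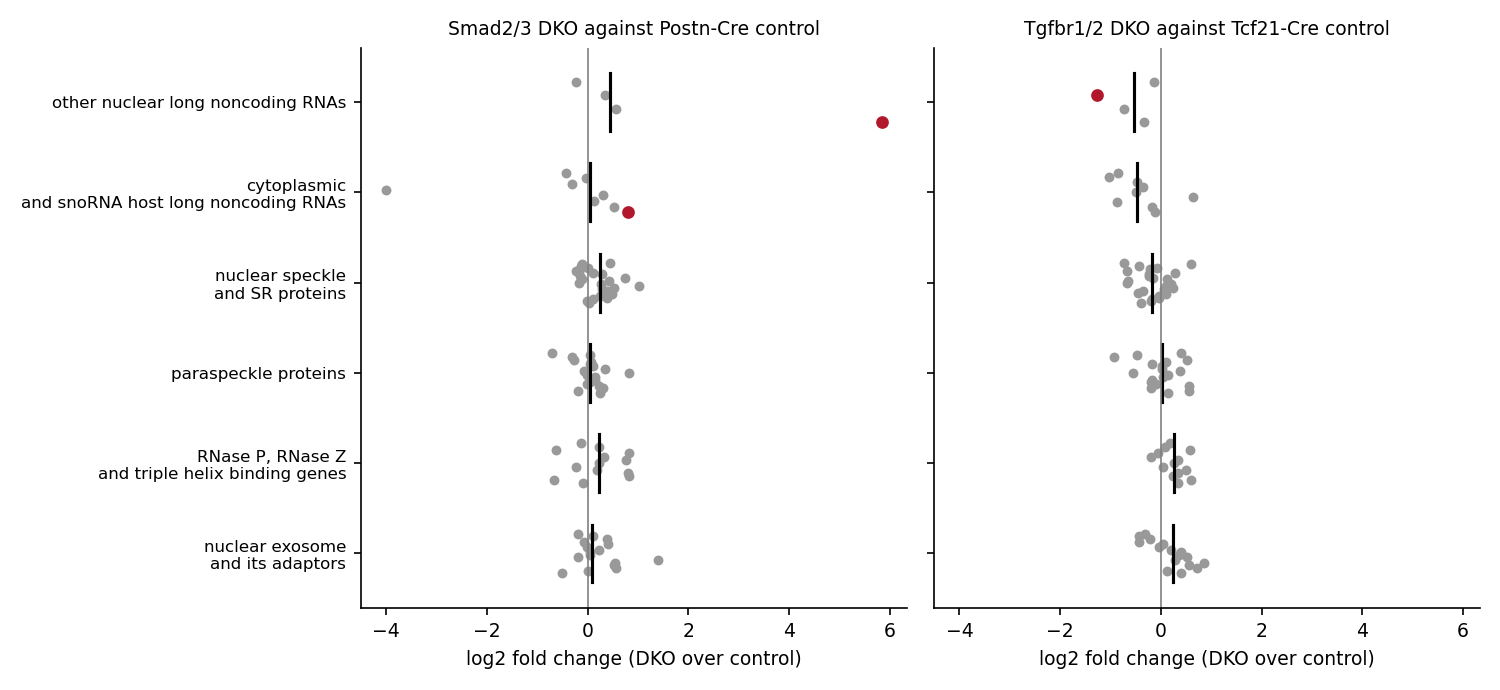
Log2 fold change (DKO over control) of each fitted gene in 6 lists, in both comparisons. Grey points did not pass an adjusted p of 0.05 (edgeR), red points did, and black lines are list medians. Red points are Xist and Gas5 in the Smad2/3 comparison and Meg3 in the Tgfbr1/2 comparison.

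Regulators of Neat1 and the stress programmes it answers to were read beside it. Among 8 transcription factors known to act on Neat1, 0 passed in the Smad2/3 comparison (edgeR; 1 had an unadjusted p under 0.05 and DESeq2 called 1) and 0 in the Tgfbr1/2 comparison (1 and 0), with medians of -0.09 and 0.17. Stat3 had -0.15 ± 0.16 and 0.29 ± 0.22, Nfkb1 had 0.23 ± 0.14 and -0.18 ± 0.40, and Epas1, the hypoxia factor HIF-2α, had 0.22 ± 0.16 and 0.04 ± 0.19. Of 17 hypoxia targets, 0 passed in the Smad2/3 comparison (edgeR; 2 had an unadjusted p under 0.05 and DESeq2 called 0), with a median of 0.16, and 1 rose in the Tgfbr1/2 comparison, with a median of 0.17. Ldha, a glycolytic enzyme, had 613 and 688 CPM in Tgfbr1/2 DKO against 343 and 311 CPM in Tcf21-Cre control (1.08 ± 0.21, adjusted p = 0.0221), and its call was lost without Tgfbr1/2 DKO HK4 (0.131), Tcf21-Cre control HK6 (0.0686) or Tcf21-Cre control HK7 (0.0841).

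Among p53 targets, 1 of 17 fell in the Smad2/3 comparison (median 0.15) and 1 of 18 fell in the Tgfbr1/2 comparison (median -0.1). Plk2, a polo-like kinase, fell by 0.98 on the log2 scale in Smad2/3 DKO (adjusted p = 0.0241), a call lost without Smad2/3 DKO HK15 (0.153) or HK16 (0.0635). Trp53inp1, a stress-induced nuclear protein, fell by 1.19 in Tgfbr1/2 DKO (adjusted p = 0.0249), a call lost without Tgfbr1/2 DKO HK4 (0.122) or Tcf21-Cre control HK7 (0.098). Among 20 immediate early and heat shock genes, 1 rose and 1 fell in the Smad2/3 comparison (median 0.45) and 2 fell in the Tgfbr1/2 comparison (median 0.15). Egr1 rose by 0.71 (adjusted p = 0.0385, lost without Smad2/3 DKO HK15, 0.138, Smad2/3 DKO HK16, 0.153, or Postn-Cre control HK4, 0.0845) and Klf6 fell by 0.79 (adjusted p = 0.0184, lost without Smad2/3 DKO HK15, 0.183, or HK16, 0.0519). Hspa1a and Hspa1b, near-identical copies of the inducible Hsp70 gene whose reads may be split between them, fell in Tgfbr1/2 DKO, with log2 fold changes of -1.62 and -1.59 (adjusted p = 0.0146 and 0.0324). The Hspa1b call was lost without Tgfbr1/2 DKO HK2 (0.0962).

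Measures of the RNA and the libraries moved with Malat1 in places. Long noncoding RNA genes without Malat1 and Neat1 held 0.991% and 1.06% of counts in Smad2/3 DKO, against 0.79% and 0.936% in Postn-Cre control, and 0.638% and 0.561% in Tgfbr1/2 DKO, against 0.814% and 0.714% in Tcf21-Cre control. Like Malat1, this share was higher in both Smad2/3 DKO libraries and lower in both Tgfbr1/2 DKO libraries than in their controls. Ribosomal protein genes held 1.21% and 1.25% in Smad2/3 DKO, against 1.05% and 0.874% in Postn-Cre control, and 2.85% and 2.7% in Tgfbr1/2 DKO, against 1.91% and 2.26% in Tcf21-Cre control. They were higher in the DKO libraries of both comparisons, while Malat1 went opposite ways.

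The median exon length of the gene behind a count was taken without Malat1, Neat1 and genes absent from the GENCODE annotation. It was 6115 and 6099 bases in Smad2/3 DKO, against 6175 and 6363 bases in Postn-Cre control. In Tgfbr1/2 DKO it was 5408 and 5314 bases, against 5911 and 5838 bases in Tcf21-Cre control. The length was lower in the DKO libraries of both comparisons, while Malat1 was higher in Smad2/3 DKO and lower in Tgfbr1/2 DKO. Counts assigned to Lars2, the mitochondrial leucyl-tRNA synthetase gene, were 1.86% and 1.05% in Smad2/3 DKO, against 1.11% and 0.901% in Postn-Cre control. They were 4.59% and 4.46% in Tgfbr1/2 DKO, against 3.91% and 4.51% in Tcf21-Cre control. Whether all of these counts come from Lars2 mRNA was not tested. The Lars2 share separated the runs more than the genotypes. No RNA integrity value was used here, and mitochondrially encoded genes were not analysed here. The part of RNA quality in the Malat1 differences was not tested.

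**Figure D5:**
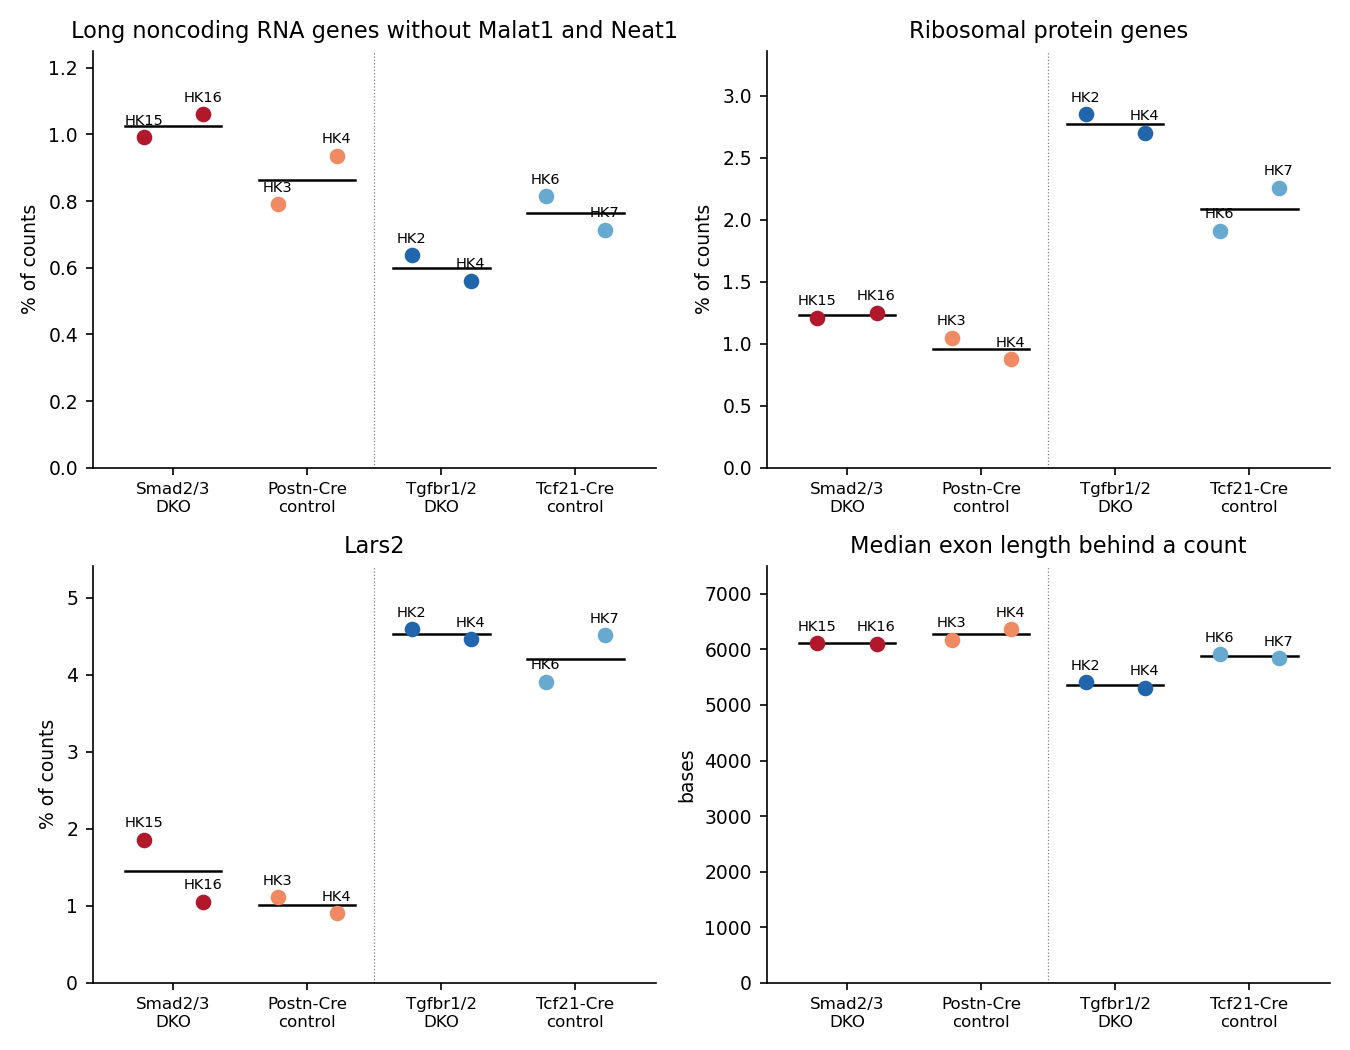
Share of counts (%) from long noncoding RNA genes without Malat1 and Neat1, from ribosomal protein genes and from Lars2, in each of 8 libraries. The last panel is the median exon length in bases of the gene behind a count, without Malat1, Neat1 and unannotated genes. Points are libraries and lines are group means. The long noncoding share is lower in Tgfbr1/2 DKO (0.561% to 0.638%) than in Tcf21-Cre control (0.714% to 0.814%).

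Markers of fibroblasts were present in all libraries. All 10 fibroblast markers had counts, with summed levels of 15779 to 16030 CPM in Smad2/3 DKO against 21064 to 24006 CPM in Postn-Cre control, and 29514 to 29519 CPM in Tgfbr1/2 DKO against 32498 to 41598 CPM in Tcf21-Cre control. In Smad2/3 DKO 3 of 10 fell (Col1a1, Col1a2 and Col3a1, collagen chains, by 1.69, 1.44 and 2.15 on the log2 scale; adjusted p = 0.0011, 0.0011 and 8.05e-05). Markers of other cell types were also present. The 12 myeloid markers summed to 214 and 233 CPM in Tgfbr1/2 DKO against 59.6 and 88.9 CPM in Tcf21-Cre control, and 5 of 12 rose. They included Itgam (1.72, adjusted p = 0.023), Cd14 (1.86, 0.025), Cd74 (1.61, 0.0379) and Csf1r (1.34, 0.0381). Each of those calls was lost without at least 2 of the 4 libraries, the highest adjusted p being 0.0832, 0.0946, 0.103 and 0.224 without Tgfbr1/2 DKO HK4. The calls of Cd14, Cd74 and Csf1r were also lost without Tcf21-Cre control HK6 (0.0789, 0.0555 and 0.116), and that of Itgam without Tgfbr1/2 DKO HK2 (0.0588) or Tcf21-Cre control HK7 (0.0813).

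The 6 epicardial markers summed to 427 and 444 CPM in Tgfbr1/2 DKO against 83.9 and 46.4 CPM in Tcf21-Cre control, and 1 of 5 fitted rose, Aldh1a2 (3.73, adjusted p = 0.0296, 0.286 without Tgfbr1/2 DKO HK2 and 0.285 without HK4). Aldh1a2, a retinoic acid synthesis enzyme, held 387 and 420 CPM of those sums in Tgfbr1/2 DKO, against 49.3 and 16.5 CPM in Tcf21-Cre control. The other 5 summed to 39.7 and 24.3 CPM in Tgfbr1/2 DKO, against 34.6 and 29.9 CPM in Tcf21-Cre control, which overlap. Eng, the most abundant endothelial marker, had 311 and 279 CPM in Tgfbr1/2 DKO, against 190 and 172 CPM in Tcf21-Cre control. The other 11 summed to 255 and 260 CPM in Tgfbr1/2 DKO, against 270 and 246 CPM in Tcf21-Cre control, which overlap. All 12 endothelial markers summed to 566 and 539 CPM in Tgfbr1/2 DKO against 460 and 418 CPM in Tcf21-Cre control. In Smad2/3 DKO the 12 endothelial markers summed to 241 and 155 CPM, against 492 and 240 CPM in Postn-Cre control. Of these, 2 of 12 rose in Tgfbr1/2 DKO, Eng (0.78, adjusted p = 0.0423) and Fabp4 (1.06, 0.0276); the Eng call was lost without any one library (up to 0.168) and the Fabp4 call without any but Tcf21-Cre control HK7 (up to 0.112). Among 10 pericyte and smooth muscle markers, Kcnj8 fell in Smad2/3 DKO (-3.17, adjusted p = 0.0177, and 0.0644 without Postn-Cre control HK3) and Acta2 rose in Tgfbr1/2 DKO (1.09, adjusted p = 0.014, and 0.0827 without Tgfbr1/2 DKO HK4 or 0.0566 without Tcf21-Cre control HK7). The 10 pericyte and smooth muscle markers summed to 1054 and 766 CPM in Smad2/3 DKO, against 1569 and 868 CPM in Postn-Cre control. They summed to 952 and 1024 CPM in Tgfbr1/2 DKO, against 1057 and 787 CPM in Tcf21-Cre control. Both pairs of sums overlap. Without Rgs5, the most abundant, the sums were 324 and 223 CPM in Smad2/3 DKO, against 368 and 261 CPM in Postn-Cre control. They were 761 and 763 CPM in Tgfbr1/2 DKO, against 623 and 565 CPM in Tcf21-Cre control, which do not overlap. The medians of the 10 markers were -0.41 (9 below 0) and 0.34 (7 above 0, 3 below), with Rgs5 at -0.43 ± 0.32 in Tgfbr1/2 DKO. In the Smad2/3 comparison the myeloid markers summed to 33.6 and 32.3 CPM in Smad2/3 DKO against 37.1 and 34.5 CPM in Postn-Cre control. Sums of cardiomyocyte markers were 713 to 766 CPM in Smad2/3 DKO against 675 to 723 CPM in Postn-Cre control, and 592 to 686 CPM in Tgfbr1/2 DKO against 578 to 594 CPM in Tcf21-Cre control. Atp2a2, a calcium pump, made up most of them. The other 13 summed to 132 and 132 CPM in Smad2/3 DKO, against 224 and 189 CPM in Postn-Cre control, and to 247 and 171 CPM in Tgfbr1/2 DKO, against 183 and 269 CPM in Tcf21-Cre control. In the Smad2/3 comparison 10 of 12 fitted cardiomyocyte markers lay below 0 with a median log2 fold change of -1.16, and 11 of 12 endothelial markers with a median of -1.15; none passed (edgeR; 5 of each had an unadjusted p under 0.05 and DESeq2 called 1 of each). In the Tgfbr1/2 comparison the medians were -0.13 and 0.62.

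Schwann cell markers, like Malat1, summed higher in both Smad2/3 DKO libraries and lower in both Tgfbr1/2 DKO libraries than in their controls. So did both lists of other long noncoding RNAs and the nuclear speckle and SR proteins. The latter summed to 6753 and 7381 CPM in Smad2/3 DKO, against 6144 and 6675 CPM in Postn-Cre control. In Tgfbr1/2 DKO these proteins' genes summed to 3611 and 3650 CPM, against 5044 and 3965 CPM in Tcf21-Cre control. The share of all genes that separate in this way was not counted. Sums of myeloid and epicardial markers separated the opposite way in both comparisons, the epicardial ones through Aldh1a2. The epicardial sums were 39.4 and 36.5 CPM in Smad2/3 DKO, against 70.2 and 60.9 CPM in Postn-Cre control. Without Aldh1a2 they were 25.7 and 18.8 CPM in Smad2/3 DKO, against 30.7 and 25.8 CPM in Postn-Cre control. Those of the Tgfbr1/2 comparison overlap without Aldh1a2. The 7 Schwann cell markers summed to 53.5 and 44.1 CPM in Smad2/3 DKO, against 35.6 and 37.2 CPM in Postn-Cre control. In Tgfbr1/2 DKO they summed to 23.9 and 18.0 CPM, against 47.9 and 24.4 CPM in Tcf21-Cre control. The median log2 fold change of the 6 fitted was 0.27 in the Smad2/3 comparison (4 above 0) and -0.88 in the Tgfbr1/2 comparison (6 below 0), and 1.3 for the difference (6 above 0). None passed (edgeR; 0, 1 and 2 had an unadjusted p under 0.05, and DESeq2 called 0 in each). The 6 erythroid markers summed to 12.7 and 15.7 CPM in Smad2/3 DKO, against 34.8 and 5.87 CPM in Postn-Cre control. In Tgfbr1/2 DKO they summed to 135 and 46.9 CPM, against 26.1 and 42.7 CPM in Tcf21-Cre control. Their medians were -0.15 and 1.41, and 0 passed (edgeR), while DESeq2 called 0 and 4. The 8 lymphocyte markers summed to at most 8.7 CPM in any library, and 0 passed. No marker of these lists was at 0 in every library. In bulk RNA, fewer cells of a type and less RNA per cell cannot be told apart, and the part of other cells in the Malat1 differences was not tested.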

How the data were processed

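RNA of sorted cells was amplified (NuGEN Ovation), tagmented (Nextera XT) and sequenced on a HiSeq2500, per the labels' protocols, which describe no strand-marking step, so antisense genes cannot be told apart. The submitters' processing notes name mm10 as the build. Neither aligner nor counter is given in the sources used here. Per the file headers, the authors deposited expected counts per gene (12.5% of values above 0 were whole) and log2 values, fold ratios and signed fold scores. Expected counts were rounded and summed per symbol. Both comparisons were run in edgeR 4.0.16 (R 4.3.3), each on the 4 libraries concerned (TMM, filterByExpr, robust quasi-likelihood F test, two-sided, Benjamini-Hochberg over all genes fitted, threshold 0.05), and the difference between effects to all 8. SEs were derived from the F statistic. DESeq2 1.42.0, other scalings and filters, and left-out libraries were alternatives, in which a lone library is assumed to vary like the other groups. The fits were tested on simulated counts. A p-value here reflects the spread among these libraries alone. The genes and lists were chosen with earlier results of these data known. Named genes were the neighbours within 200 kb with a mean of at least 1 CPM (1 of them is counted but not reported here), the called genes of each list (up to 4) or otherwise the 3 most abundant, and the 5 most like each RNA. Targeted, Y-linked and RNA quality genes were added as checks after values were seen.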

Additional observations from a re-analysis of the deposited data

Results flagged for a closer look

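The effect on Malat1 differed in direction between the comparisons, with DKO libraries above their controls for Smad2/3 and below them for Tgfbr1/2. The share of all genes whose libraries separate in this way was not counted. The Smad2/3 effect minus the Tgfbr1/2 effect was 1.84 on the log2 scale, and this difference was not tested, because Malat1 was selected on it.

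The lists were chosen with earlier results of these data known, so their share of calls may be partly set by that choice. The difference between the effects passed the edgeR interaction test for 7 of 227 genes of the lists (3.08%), beside 326 of all 17770 genes (1.83%). It was 6.18 for Xist (adjusted p = 0.00476) and -5.04 for Aldh1a2 (adjusted p = 0.00143), and these calls held with any library left out. It was 1.61 for Meg3 (adjusted p = 0.0357) and 1.36 for Hnrnph3 (adjusted p = 0.0314), and -1.88 for Col3a1 (adjusted p = 0.0314), -1.71 for Eng, an endothelial marker (adjusted p = 0.0149), and -3.89 for Kcnj8, a pericyte marker (adjusted p = 0.0212). Those 5 calls were lost without at least 1 library, with adjusted p up to 0.145 for Meg3 (without Tgfbr1/2 DKO HK4), 0.111 for Hnrnph3 (without Tgfbr1/2 DKO HK2), and 0.0954 for Col3a1, 0.0606 for Eng and 0.063 for Kcnj8 (without Smad2/3 DKO HK16). Run and Cre driver change with the targeted genes in each of these differences.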

How the results depend on the processing

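The Malat1 log2 fold changes kept their direction under each alternative run: size factors of the DESeq2 type, library totals alone, no low-count filter, a fit without robust estimation, DESeq2, a fit of all 8 libraries, and each library left out (0.37 to 0.71 for Smad2/3, -1.45 to -1.16 for Tgfbr1/2, and 1.66 to 2.01 for the difference). For Malat1, leaving out a library could not be expected to turn the sign, because its groups do not overlap. Neat1 ran from -0.34 to 1.15, from -0.45 to 1.27 and from -0.99 to 0.90 with a library left out. Its sign turned without Smad2/3 DKO HK16 (-0.34), without Tgfbr1/2 DKO HK2 (-0.45), and for the difference without Smad2/3 DKO HK15 (0.35), Postn-Cre control HK4 (0.49) or Tgfbr1/2 DKO HK2 (0.90). The cause was not tested.

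Genes called numbered 204, 659 and 326 for Smad2/3, Tgfbr1/2 and the difference. They numbered 819, 1233 and 1194 with no low-count filter, and 771, 1104 and 1138 with DESeq2. The fit of all 8 libraries called 299 for Tgfbr1/2. With a library left out they ran from 105 to 297, from 271 to 484 and from 89 to 302. The cause was not tested. Library totals alone moved the median of all genes to 0.16 for the difference, where Malat1 was 1.99, and the split of calls from 71 higher and 133 lower to 90 and 106 for Smad2/3, and from 118 and 208 to 158 and 160 for the difference. Of the named calls, the fit of all 8 libraries lost 4 for Smad2/3 (Gas5, Plk2, Egr1 and Klf6, adjusted p from 0.0569 to 0.202) and 8 for Tgfbr1/2 (Eng, Fabp4, Acta2, Csf1r, Emr1, Cd14, Cd74 and Capn1, 0.0673 to 0.574). Aldh1a2 (Tgfbr1/2) was lost with library totals alone (0.069) and with no low-count filter (0.16). Eng and Capn1 were also lost with library totals alone (0.059 and 0.0803), Capn1 with size factors of the DESeq2 type (0.0522), and Eng, Csf1r, Emr1 and Capn1 without robust estimation (0.0573 to 0.0677). No paired analysis was possible because the groups compared share no library number.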
